A study of Mus musculus with 37 samples.

Results

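The 10 genes described here belong to the Bcl2 family and to the p53 pathway, and were followed in mouse germinal vesicle (GV) oocytes and 2-cell embryos. They are the anti-apoptotic genes Bcl2l10 and Mcl1, the pore-forming effectors Bax and Bak1, the BH3-only genes Bbc3, Pmaip1 and Bcl2l11, and Trp53, Mdm2 and Cdkn1a of the p53 pathway. The genes were taken by their symbols from the 29296 genes listed in at least 1 of 4 RNA-seq tables. Of the 10 genes, 9 were listed in at least 1 table. Bak1 was not listed in the tables used here, and Bbc3 was listed in the table of CabZ 2-cell embryos alone.

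Proteins of the Bcl2 family decide whether the outer mitochondrial membrane is opened during apoptosis. Bax and Bak1 form the pore, Bcl2l10 and Mcl1 hold them in check, and BH3-only proteins such as Bbc3 (PUMA), Pmaip1 (NOXA) and Bcl2l11 (BIM) oppose the anti-apoptotic members. p53, the product of Trp53, is a transcription factor that activates Bax, Bbc3, Pmaip1, the Cdk inhibitor gene Cdkn1a (p21) and Mdm2, whose product is the ubiquitin ligase that targets p53 for degradation. Bcl2l10 (also called Diva or Boo) is known as an abundant oocyte transcript, and Trp63 rather than Trp53 is the family member best known for DNA damage quality control in oocytes.

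Wild-type mice and the lines with conditional Hira or Cabin1 alleles were C57BL/6, and the background of the Zp3-Cre line was not given. ZH mice carried Zp3-Cre, which is expressed in the female germline, with a conditional Hira allele, and CabZ mice carried Zp3-Cre with a conditional Cabin1 allele. Hira and Cabin1 are subunits of the chaperone complex that deposits histone H3.3. Heterozygous controls (Het) therefore carried Zp3-Cre and 1 deleted allele, and KO oocytes lacked both alleles. Oocytes were fully grown GV oocytes of females primed with gonadotrophin, and CabZ 2-cell embryos came from Het or KO females, the labels not saying whether by fertilisation or activation. For Zscan4 overexpression (Zscan4 OE), wild-type oocytes were injected with Zscan4 RNA or, as control, GFP RNA, and per the methods were matured in vitro and activated parthenogenetically. Each RNA library pooled several oocytes or embryos, and animal ages were not given in the sources used here. Each group of GV oocytes (Het and KO of both lines), of CabZ 2-cell embryos and of GFP embryos had 4 libraries, and Zscan4 OE embryos had 3. ATAC-seq peak lists, which mark open chromatin, covered 3 CabZ Het and 3 CabZ KO libraries of GV oocytes. The labels do not say that libraries of a group came from different animals, so p-values measure the spread between libraries, which may be technical. In pooled cells, fewer cells that express a gene and less RNA per cell cannot be told apart.

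Between 5805197 and 21736007 reads on genes were recovered per library. FPKM here are reads scaled to the length of the whole gene span, introns included, and to the library's total, so levels were compared between genes only per kilobase of exon. Cabin1 was lower in CabZ KO GV oocytes than in CabZ Het GV oocytes (Het 0.119 ± 0.0312, KO 0.0242 ± 0.0167 FPKM, mean ± SD, n = 4 each, 2-sided exact permutation p = 0.0286) and lower in CabZ KO than in CabZ Het 2-cell embryos (Het 0.322 ± 0.0978, KO 0.134 ± 0.0497 FPKM, exact permutation p = 0.0286). Hira had between 0 and 1.09 CPM, which are reads scaled to the library's total alone, in every ZH library, too few to check the ZH labels. Cabin1 was also lower in ZH KO oocytes (Het 0.286 ± 0.0410, KO 0.0864 ± 0.0175 FPKM, exact permutation p = 0.0286), and Hira was lower in CabZ KO embryos (Het 0.233 ± 0.0348, KO 0.0434 ± 0.0196 FPKM, exact permutation p = 0.0286). Zscan4d was not higher in the libraries labelled Zscan4 OE (79.4 ± 7.94 FPKM, n = 3) than in GFP libraries (117 ± 34.4 FPKM, n = 4, exact permutation p = 0.171). This check, made at the 2-cell stage, did not show the overexpression that the label names. It cannot decide on the label, since Zscan4d was already at 117 FPKM in GFP libraries at this stage. Directions in that comparison are those of the libraries labelled Zscan4 OE. After injection at the earlier GV stage, the paper reported more Zscan4 than in the uninjected group, by qRT-PCR, immunofluorescence and western blot. All 10 oocyte markers, among them Zp3, Gdf9 and Bmp15, were detected in each table.

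Promoters of 4 genes are shown first because they hold a 10-base half-site of p53, written here as the p53 decamer. A half-site is only a part of a p53 binding site, so a single match is not a full site. Promoters were taken from RefSeq (GRCm38.p6). Promoters of 8 of the 10 genes were searched, 12 promoters in all. Bcl2l10 and Pmaip1 were not among these 8, so whether their promoters hold a decamer was not tested. Each window searched ran from 250 bases before to 50 after a transcription start, and the decamer, which reads the same on both strands, occurred in 8.36% of all 32851 such windows. The stretches below are the 250 bases upstream of the start, read 5′ to 3′ on the gene's strand, with capitals for the decamer. Bax lies on the minus strand (window chr7:45466899-45467148), as does Mdm2 (chr10:117710759-117711008), whereas Trp53 (chr11:69580109-69580358) and Cdkn1a (chr17:29090729-29090978, the upstream of its 2 starts) lie on the plus strand.
Bax: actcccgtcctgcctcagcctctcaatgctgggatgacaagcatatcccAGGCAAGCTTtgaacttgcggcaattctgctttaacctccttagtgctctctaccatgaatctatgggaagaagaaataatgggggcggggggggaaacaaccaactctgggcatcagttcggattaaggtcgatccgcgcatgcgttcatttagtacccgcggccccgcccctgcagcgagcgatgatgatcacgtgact
Mdm2: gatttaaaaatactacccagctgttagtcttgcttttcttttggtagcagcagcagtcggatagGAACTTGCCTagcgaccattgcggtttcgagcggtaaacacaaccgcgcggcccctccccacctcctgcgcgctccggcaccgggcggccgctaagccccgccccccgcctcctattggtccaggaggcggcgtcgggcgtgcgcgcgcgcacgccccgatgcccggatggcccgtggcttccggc
Trp53: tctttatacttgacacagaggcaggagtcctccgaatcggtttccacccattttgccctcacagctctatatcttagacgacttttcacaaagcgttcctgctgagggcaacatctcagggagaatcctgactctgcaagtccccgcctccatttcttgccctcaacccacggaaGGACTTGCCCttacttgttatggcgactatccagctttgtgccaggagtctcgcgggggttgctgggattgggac
Cdkn1a: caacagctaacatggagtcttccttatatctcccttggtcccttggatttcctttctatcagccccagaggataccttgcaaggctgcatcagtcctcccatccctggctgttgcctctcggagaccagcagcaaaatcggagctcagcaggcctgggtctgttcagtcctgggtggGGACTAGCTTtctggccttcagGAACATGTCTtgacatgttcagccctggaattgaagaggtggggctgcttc
The Cdkn1a window holds 2 decamers, the first of them beginning 73 bases before the start. In the other windows the single match began 201 (Bax), 186 (Mdm2) and 75 bases (Trp53) before the start. No decamer was found in the windows of Mcl1, Bcl2l11, Bbc3, Bak1 or the second Cdkn1a start. The GC box GGGCGG, searched on both strands, was in the windows of Bax, Mdm2, Mcl1, Bcl2l11, Bbc3 and the second Cdkn1a start, and in 35.7% of all windows. A match describes the letters of a window and is not evidence of binding. The 4 genes with a decamer are followed together with the other members in the comparisons below.

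Bcl2l10 stood far above the other members in every group. Per kilobase of exon, Bcl2l10 was at 2869 ± 314 FPKM in ZH Het oocytes (SD, n = 4), and the next member, Mdm2, at 16.9 ± 3.57. Trp53 (6.40 ± 1.17) and Bax (5.10 ± 1.77) followed with overlapping ranges. Bcl2l11 (0.668 ± 0.135), Mcl1 (0.511 ± 0.225) and Cdkn1a (0.280 ± 0.0702) came next, each overlapping its neighbour, and Pmaip1 was lowest at 0.0629 ± 0.0754. CabZ Het oocytes had nearly the same order, with Bcl2l10 at 4504 ± 717, Mdm2 at 12.8 ± 1.63 and Pmaip1 lowest at 0.0794 ± 0.0254 FPKM per kilobase of exon, but with Bax (9.35 ± 1.12) above Trp53 (5.95 ± 0.988). These 2 tables were normalised separately, and no test was made between them.

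The order was different in CabZ Het 2-cell embryos, where the genes near the floor in oocytes had higher levels. On the same exon scale, Bcl2l10 led at 344 ± 182 FPKM, followed by Cdkn1a (35.9 ± 5.13), Mcl1 (22.3 ± 1.50) and Mdm2 (19.7 ± 1.99). Bcl2l11 (12.6 ± 2.85), Bax (11.9 ± 3.90), Pmaip1 (10.3 ± 3.41) and Trp53 (6.12 ± 2.19) overlapped from each to the next, and Bbc3 was at 0.0720 ± 0.108. In GFP 2-cell embryos Bcl2l10 was at 1795 ± 299 and Mdm2 at 11.2 ± 2.36, and Mcl1 (4.89 ± 0.637), Trp53 (3.95 ± 1.14), Bax (2.97 ± 1.02), Cdkn1a (2.62 ± 0.743) and Bcl2l11 (1.70 ± 0.330) overlapped in turn. Pmaip1, at 10.3 FPKM in CabZ Het embryos, had reads in only 1 of 4 GFP libraries (27 reads). Cdkn1a was at 35.9 in the former and 2.62 in the latter, on scales that were set separately.

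**Figure D1:**
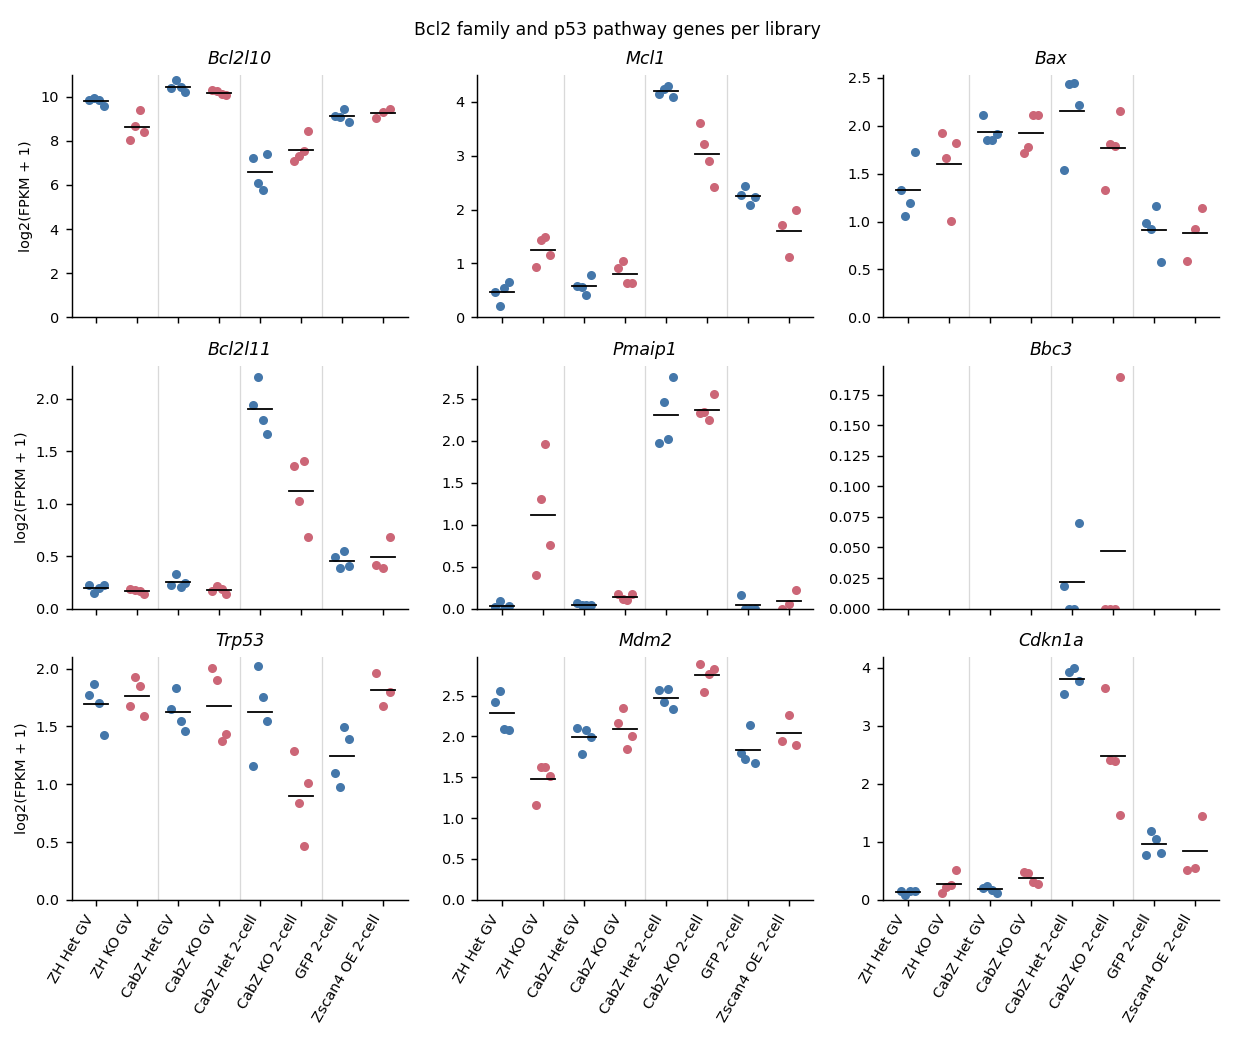
Level of 9 genes in each RNA-seq library, as log2(FPKM + 1) over the gene span (y axis), by group (x axis), with controls in blue, KO or Zscan4 OE libraries in red and a line at each group mean (n = 4, and 3 for Zscan4 OE). Grey lines part tables that were normalised separately. Bcl2l10 lies lower in all 4 ZH KO libraries than in any ZH Het library, and Mcl1 lies lower in all 4 CabZ KO embryos than in any CabZ Het embryo library.

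The first comparison asked how these genes stood in oocytes without Hira. In ZH KO oocytes, 2 of the 4 members with a mean of at least 1 FPKM passed the test (limma on log2(FPKM + 1), Benjamini-Hochberg adjusted p under 0.05 over all 5792 genes tested), and both were lower: the anti-apoptotic Bcl2l10 and the p53 ligase gene Mdm2. Of all genes tested, 26.3% passed as lower, 25.6% passed as higher, and 17.7% were differentially expressed (DE, passed with a fold change above 2). Bax and Trp53 did not pass. The other listed members, Mcl1, Pmaip1, Cdkn1a and Bcl2l11, were under the filter and are described after the tested ones. Passed genes numbered 1485 higher and 1521 lower, 1195 and 1987 after median scaling, and 2093 and 1379 after scaling to the reads of the table.

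Bcl2l10 (chr9:75347758-75351632) had 929, 995, 927 and 763 FPKM in ZH Het libraries and 259, 405, 678 and 334 FPKM in ZH KO libraries. All 4 ZH KO values lay under the lowest ZH Het value. The mean went from 903 ± 98.8 to 419 ± 183 FPKM (log2 fold change -1.19, SE 0.26, adjusted p = 0.0042). Leaving out each library in turn gave log2 fold changes from -1.46 to -0.99 and adjusted p from 0.00032 to 0.015. Between 15550 and 59726 reads per library lay on Bcl2l10, so counting error is small beside the spread between libraries. The summed level of the 10 oocyte markers was 17923 to 19858 CPM in ZH Het and 11225 to 18975 CPM in ZH KO libraries, with 3 of the 10 markers passing as lower, and the part of this in the Bcl2l10 difference was not tested.

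Mdm2 (chr10:117688875-117710758) had 4.35, 4.88, 3.24 and 3.22 FPKM in ZH Het libraries and 1.24, 2.10, 2.08 and 1.86 FPKM in ZH KO libraries. Again no ZH KO library reached the lowest ZH Het library. Mdm2 fell by 0.80 on the log2 scale (3.92 ± 0.829 to 1.82 ± 0.404 FPKM, SE 0.16, adjusted p = 0.0030). Median scaling shifts every log2 fold change of this table by -0.15, and on that scale the differences were -1.34 for Bcl2l10 and -0.95 for Mdm2.

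Trp53 itself was at 2.41, 2.65, 2.26 and 1.68 FPKM in ZH Het and 2.21, 2.81, 2.60 and 2.02 FPKM in ZH KO libraries. The groups overlapped, and the log2 fold change of 0.07 (SE 0.14, adjusted p = 0.67) turned to -0.08 under median scaling. Bax, the pore-forming effector, had 1.51, 1.08, 1.29 and 2.31 FPKM in ZH Het and 2.80, 2.17, 1.01 and 2.54 FPKM in ZH KO libraries. The Bax ranges overlapped (log2 fold change 0.28, SE 0.22, adjusted p = 0.31). Without ZH KO replicate 3, the lowest of the 8 Bax values, the log2 fold change was 0.48 and passed the test (adjusted p = 0.043).

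Of the members under the filter, Mcl1 and Pmaip1 were higher in ZH KO oocytes, with every ZH KO library above every ZH Het library. Mcl1 (chr3:95658788-95663176), the short-lived anti-apoptotic gene, had 24, 9, 34 and 51 reads in ZH Het and 62, 119, 105 and 73 reads in ZH KO libraries. In FPKM these were 0.393, 0.160, 0.467 and 0.572 against 0.906, 1.70, 1.82 and 1.22, a ratio of means of 3.55 (2-sided exact permutation p = 0.0286, the smallest that 4 libraries against 4 allow). Pmaip1, the BH3-only gene, had 1, 6, 0 and 3 reads in ZH Het and 35, 164, 265 and 66 reads in ZH KO libraries, or 0 to 0.467 CPM against 2.24 to 20.1 CPM (exact permutation p = 0.0286). No fold is given for Pmaip1, since the ZH Het libraries were at or near 0. ZH KO libraries differed widely among themselves in Pmaip1, with replicates 2 and 3 above replicates 1 and 4.

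Among the 19261 genes of the ZH table under 1 FPKM and above 0, 21.3% were higher with an exact permutation p under 0.05, which is the background for Mcl1 and Pmaip1. With FPKM taken over exon length, both genes came above the filter and passed as higher over 10281 genes tested, of which 26.4% passed as higher. On that scale the log2 fold change was 0.89 for Mcl1 (SE 0.18, limma adjusted p = 0.0025) and 1.83 for Pmaip1 (SE 0.38, limma adjusted p = 0.0028). Both genes reached the filter only through the ZH KO libraries, where they were high. Mean exon levels were 0.511 (ZH Het) and 1.81 (ZH KO) for Mcl1, and 0.0629 and 3.43 for Pmaip1. That fit is therefore no support beyond the exact test.

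Cdkn1a, the p21 gene, had 0.111, 0.0640, 0.118 and 0.116 FPKM in ZH Het and 0.0790, 0.166, 0.201 and 0.436 FPKM in ZH KO libraries (8 to 23 against 12 to 58 reads, exact permutation p = 0.114). Its groups overlapped through ZH KO replicate 1. Bcl2l11 had 0.171, 0.107, 0.142 and 0.167 FPKM in ZH Het and 0.141, 0.133, 0.124 and 0.104 FPKM in ZH KO libraries (exact permutation p = 0.2), with overlapping groups. Granulosa and cumulus markers, 14 of 15 listed, summed to 39.5 to 48.1 CPM in ZH Het and 35.1 to 74.7 CPM in ZH KO libraries, with Ptx3 at 0 in every ZH Het library and Foxl2 and Has2 at 0 in every ZH KO library. Blood and stroma markers, 2 of 7 listed, summed to 19.4 to 22.9 CPM in ZH Het and 3.78 to 12.2 CPM in ZH KO libraries, without overlap, and Pecam1, tested alone of these, passed as lower in the CPM fit (log2 fold change -1.90, limma adjusted p = 0.0012). Summed 2-cell markers such as Zscan4d were at 117 to 166 against 612 to 1003 CPM, with 7 of 7 tested markers passing as higher. Their part in the results for Mcl1 and Pmaip1 was not tested.

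**Figure D2:**
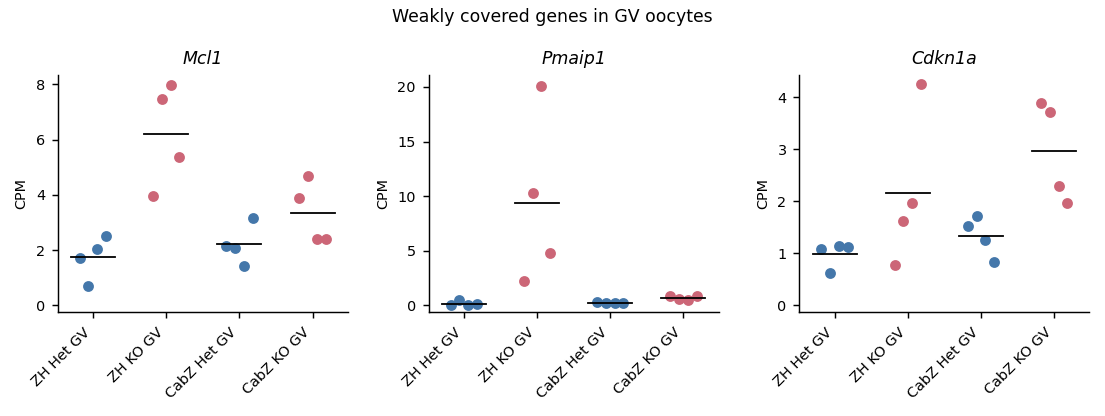
Level of Mcl1, Pmaip1 and Cdkn1a in each GV oocyte library in CPM (y axis), by group (x axis), with Het libraries in blue, KO libraries in red and a line at each mean of 4 libraries. Pmaip1 ran from 0 to 0.467 CPM in ZH Het and from 2.24 to 20.1 CPM in ZH KO libraries, while CabZ libraries all stayed under 1 CPM.

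The second comparison asked the same of oocytes without Cabin1, the other subunit. In CabZ KO oocytes, 0 of 4 members tested passed (limma, also 0 at an unadjusted p under 0.05, as had 26.9% of all genes tested), where 8.2% of the 6339 genes tested passed as higher, 5.73% as lower and 2.9% were DE. Bcl2l10 had 1361, 1733, 1383 and 1196 FPKM in CabZ Het and 1254, 1210, 1102 and 1081 FPKM in CabZ KO libraries. CabZ KO replicates 1 and 2 lay within the Het range, just above CabZ Het replicate 4, and CabZ KO replicates 3 and 4 lay under it (log2 fold change -0.28, SE 0.13, adjusted p = 0.195). Its mean was 1418 ± 226 FPKM in CabZ Het and 1162 ± 83.6 FPKM in CabZ KO oocytes.

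Mdm2 had 3.28, 2.45, 3.22 and 2.97 FPKM in CabZ Het and 3.50, 4.11, 2.59 and 3.01 FPKM in CabZ KO libraries (log2 fold change 0.11, SE 0.13, adjusted p = 0.67). Trp53 had 2.14, 2.55, 1.93 and 1.74 FPKM in CabZ Het and 3.00, 2.75, 1.59 and 1.71 FPKM in CabZ KO libraries (log2 fold change 0.06, SE 0.16, adjusted p = 0.86). Bax had 3.33, 2.62, 2.62 and 2.77 FPKM in CabZ Het and 2.29, 2.43, 3.31 and 3.33 FPKM in CabZ KO libraries (adjusted p = 0.98). The groups overlapped for each of these 3 genes, and leaving out single libraries turned the sign of Bax and of Trp53. The Bax log2 fold change stayed between -0.07 and 0.07 when single libraries were left out.

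Under the filter, Cdkn1a and Pmaip1 were higher in CabZ KO oocytes by the exact test, at low read numbers. Cdkn1a (chr17:29090976-29100727) had 19, 19, 14 and 9 reads in CabZ Het and 39, 34, 22 and 18 reads in CabZ KO libraries. In FPKM these were 0.156, 0.176, 0.129 and 0.0862 against 0.399, 0.380, 0.235 and 0.202, a ratio of means of 2.22 with no overlap (exact permutation p = 0.0286). In a fit of log2(CPM + 1) without a filter, chosen after the data were seen, Cdkn1a passed (log2 fold change 0.75, SE 0.20, limma adjusted p = 0.036), as did 7.22% of 19033 genes in that direction. Pmaip1 had 4, 2, 2 and 2 reads in CabZ Het and 9, 5, 5 and 8 reads in CabZ KO libraries (0.0312 ± 0.00997 against 0.102 ± 0.0296 FPKM, exact permutation p = 0.0286), and did not pass the unfiltered CPM fit (limma adjusted p = 0.0501). Of the 12683 genes of this table under 1 FPKM and above 0, 10.2% were higher by the exact test.

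Mcl1 had 0.493, 0.472, 0.329 and 0.724 FPKM in CabZ Het and 0.888, 1.07, 0.547 and 0.550 FPKM in CabZ KO libraries. The groups overlapped (exact permutation p = 0.143). Bcl2l11, which encodes BIM, had 0.167, 0.254, 0.151 and 0.184 FPKM in CabZ Het and 0.126, 0.164, 0.137 and 0.102 FPKM in CabZ KO libraries, also with overlap (exact permutation p = 0.0571). In the CPM fit with a mean of at least 5 CPM, the only one of the 4 low members tested was Bcl2l11, with a log2 fold change of -0.43 (SE 0.18, limma adjusted p = 0.14). The sum of granulosa and cumulus markers moved with the groups here. Of the 15, 9 were listed, and their sum was 57.4 to 73.6 CPM in CabZ Het and 99.2 to 145 CPM in CabZ KO libraries. Cyp19a1 had the highest mean in both groups (41.9 and 57.1 CPM). Next in order of means were Nr5a2 and Kitl in CabZ Het oocytes, and Fshr and Nr5a2 in CabZ KO oocytes. In the CPM fit 4 of the markers were tested and 2 passed as higher, beside 858 of 9523 genes. The log2 fold changes of these 4 ran from 0.23 to 4.41. None of the 9 was at 0 in every library of a group, while Amh, Foxl2, Ptx3, Hsd3b1, Hsd17b1 and Lhcgr were not listed. The sum of 2-cell markers was 213 to 231 against 366 to 452 CPM. Their part in the Cdkn1a and Pmaip1 values was not tested.

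The third comparison took CabZ KO oocytes on to the 2-cell stage, when the embryonic genome is activated. In CabZ KO 2-cell embryos 4 of the 8 members tested passed, all lower: the anti-apoptotic Mcl1, the BH3-only Bcl2l11, Trp53 and Cdkn1a. Of all 7798 genes tested, 30.9% passed as lower, 25.2% as higher and 37.4% were DE. Bcl2l10, Bax, Mdm2 and Pmaip1 did not pass. Passed genes numbered 1963 higher and 2413 lower, and 2495 and 1967 after median scaling, which shifts every log2 fold change of this table by 0.24.

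CabZ KO replicate 4 stood apart from the other CabZ KO embryo libraries in its markers. Its 10 oocyte markers summed to 16063 CPM, where the other 3 CabZ KO libraries had 7781 to 9592 and CabZ Het libraries 7816 to 9394 CPM. Its 2-cell markers summed to 1859 CPM, where the other 3 had 4814 to 4898 and CabZ Het libraries 1979 to 3268 CPM. This library also had the lowest Mcl1, Bcl2l11 and Cdkn1a and the highest Bcl2l10 of the 8. Without it 4 members still passed, with log2 fold changes of -0.95 for Mcl1 (adjusted p = 0.0057), -0.64 for Bcl2l11 (0.028), -0.99 for Cdkn1a (0.031) and -0.76 for Trp53 (0.045), and Bcl2l10 was at 0.69 (0.19).

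Mcl1 had 16.7, 17.9, 18.8 and 16.1 FPKM in CabZ Het embryos and 11.2, 8.37, 6.44 and 4.39 FPKM in CabZ KO embryos. All CabZ KO libraries lay under the lowest CabZ Het library, and they spread more. The mean went from 17.4 ± 1.17 to 7.60 ± 2.90 FPKM (log2 fold change -1.16, SE 0.25, adjusted p = 0.0036, and -0.92 after median scaling). Each fit without 1 library kept the call (adjusted p from 0.0019 to 0.012). In contrast to this, Mcl1 had been higher in ZH KO oocytes, in another table and at a far lower level.

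Bcl2l11 (chr2:128126038-128162547) had 2.83, 3.63, 2.47 and 2.18 FPKM in CabZ Het and 1.57, 1.04, 1.65 and 0.607 FPKM in CabZ KO embryos. The groups did not overlap, and Bcl2l11 fell by 0.78 on the log2 scale (2.78 ± 0.626 to 1.22 ± 0.490 FPKM, SE 0.22, adjusted p = 0.013, and -0.54 after median scaling). Cdkn1a had 10.6, 14.1, 14.9 and 12.6 FPKM in CabZ Het and 11.5, 4.34, 4.24 and 1.74 FPKM in CabZ KO embryos. CabZ KO replicate 1 lay within the CabZ Het range and the other 3 CabZ KO libraries lay well under it. The mean of Cdkn1a went from 13.1 ± 1.87 to 5.46 ± 4.20 FPKM (log2 fold change -1.33, SE 0.39, adjusted p = 0.017, and -1.09 after median scaling). Fits without 1 library gave log2 fold changes from -1.72 to -0.99 with adjusted p from 0.0017 to 0.046.

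Trp53 (chr11:69580359-69591873) was the least stable of the 4 calls. It had 1.23, 3.06, 2.38 and 1.92 FPKM in CabZ Het and 1.44, 0.790, 0.384 and 1.02 FPKM in CabZ KO embryos, so that CabZ Het replicate 1 lay under CabZ KO replicate 1. The log2 fold change was -0.72 (2.15 ± 0.769 to 0.908 ± 0.441 FPKM, SE 0.25, adjusted p = 0.031). Trp53 reached the filter of 1 FPKM through the CabZ Het libraries, since the CabZ KO mean lay under it. The exact permutation p was 0.0571. The call was lost without CabZ Het replicate 2 (adjusted p = 0.088), 3 (0.074) or 4 (0.053) and without CabZ KO replicate 2 (0.068) or 3 (0.085), and after median scaling (log2 fold change -0.48, adjusted p = 0.0999). Over CPM in place of FPKM, Trp53 passed with a log2 fold change of -1.22 (SE 0.40, limma adjusted p = 0.024).

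Bcl2l10 had 146, 66.2, 53.3 and 168 FPKM in CabZ Het and 134, 156, 184 and 349 FPKM in CabZ KO embryos. CabZ Het replicates 2 and 3 were low and the other 2 lay among the CabZ KO values, so that the groups overlapped (log2 fold change 0.98, SE 0.43, adjusted p = 0.078). Bcl2l10 passed as higher without CabZ Het replicate 4 (log2 fold change 1.24, adjusted p = 0.039) and after median scaling (1.22, adjusted p = 0.048), and also with a replicate block (adjusted p = 0.043) and with the deposited values as they stand (1.60, adjusted p = 0.028). Beside this, 8 of the 10 oocyte markers passed as higher in CabZ KO embryos, with all 4 CabZ KO libraries in the fit, and their sum was highest in CabZ KO replicate 4, as was Bcl2l10. Their part in the Bcl2l10 value was not tested.

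Mdm2 had 4.94, 4.34, 4.97 and 4.03 FPKM in CabZ Het and 6.38, 4.81, 5.79 and 6.10 FPKM in CabZ KO embryos, where CabZ KO replicate 2 fell within the CabZ Het range. The Mdm2 log2 fold change was 0.28 (SE 0.16, adjusted p = 0.17), and after median scaling 0.52 with an adjusted p of 0.035. Bax had 1.91, 4.40, 4.43 and 3.64 FPKM in CabZ Het and 1.51, 2.52, 2.46 and 3.44 FPKM in CabZ KO embryos, with overlap (log2 fold change -0.39, SE 0.26, adjusted p = 0.23). Pmaip1 had 2.91, 4.53, 3.05 and 5.75 FPKM in CabZ Het and 4.04, 4.09, 3.73 and 4.87 FPKM in CabZ KO embryos, the CabZ KO values lying inside the CabZ Het range (log2 fold change 0.07, SE 0.21, adjusted p = 0.80). Bbc3, which encodes PUMA, had 1, 0, 0 and 4 reads in CabZ Het and 0, 0, 0 and 8 reads in CabZ KO embryos (exact permutation p = 1), so a difference was not detectable at this depth.

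The fourth comparison set 2-cell embryos labelled Zscan4 OE against GFP controls. None of the 4 members tested passed (limma, with 2 of 4 at an unadjusted p under 0.05, Trp53 and Mcl1), where of 4293 genes tested 19.8% had an unadjusted p under 0.05, 0.0932% passed as higher, 1.7% as lower and 1.44% were DE. Trp53 had 1.14, 0.970, 1.83 and 1.62 FPKM in GFP libraries and 2.90, 2.20 and 2.48 FPKM in Zscan4 OE libraries. The groups did not overlap (1.39 ± 0.401 against 2.52 ± 0.353 FPKM, log2 fold change 0.57, SE 0.18, limma adjusted p = 0.13). Mcl1 had 3.85, 4.44, 3.23 and 3.71 FPKM in GFP and 2.3, 1.17 and 2.97 FPKM in Zscan4 OE libraries, again without overlap (3.81 ± 0.496 against 2.15 ± 0.913 FPKM, log2 fold change -0.65, SE 0.22, limma adjusted p = 0.15). The exact permutation p was 0.0571 for each of them, where 4 libraries against 3 allow 0.0286.

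Bcl2l10 had 555, 542, 694 and 469 FPKM in GFP and 527, 635 and 690 FPKM in Zscan4 OE libraries (log2 fold change 0.13, SE 0.18, limma adjusted p = 0.70). Mdm2 had 2.47, 2.31, 3.40 and 2.20 FPKM in GFP and 2.86, 3.79 and 2.73 FPKM in Zscan4 OE libraries (log2 fold change 0.20, SE 0.17, limma adjusted p = 0.53). Both pairs of groups overlapped, as did those of the 4 members under the filter. Among these, Cdkn1a had 0.708, 1.28, 1.08 and 0.759 FPKM in GFP and 0.436, 0.466 and 1.73 FPKM in Zscan4 OE libraries (exact permutation p = 0.914), with Zscan4 OE replicate C above all others. Bax had 0.974, 0.892, 1.24 and 0.491 FPKM in GFP and 0.500, 0.892 and 1.20 FPKM in Zscan4 OE libraries (exact permutation p = 0.8). Bcl2l11 ran from 0.310 to 0.464 FPKM in GFP and from 0.304 to 0.600 FPKM in Zscan4 OE libraries (exact permutation p = 0.686), and Pmaip1 had 27, 0, 0 and 0 against 0, 6 and 17 reads (exact permutation p = 0.514). The summed 2-cell markers were at 1696 to 2502 CPM in GFP and 858 to 1656 CPM in Zscan4 OE libraries, without overlap, and their part in the Trp53 and Mcl1 values was not tested.

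**Figure D3:**
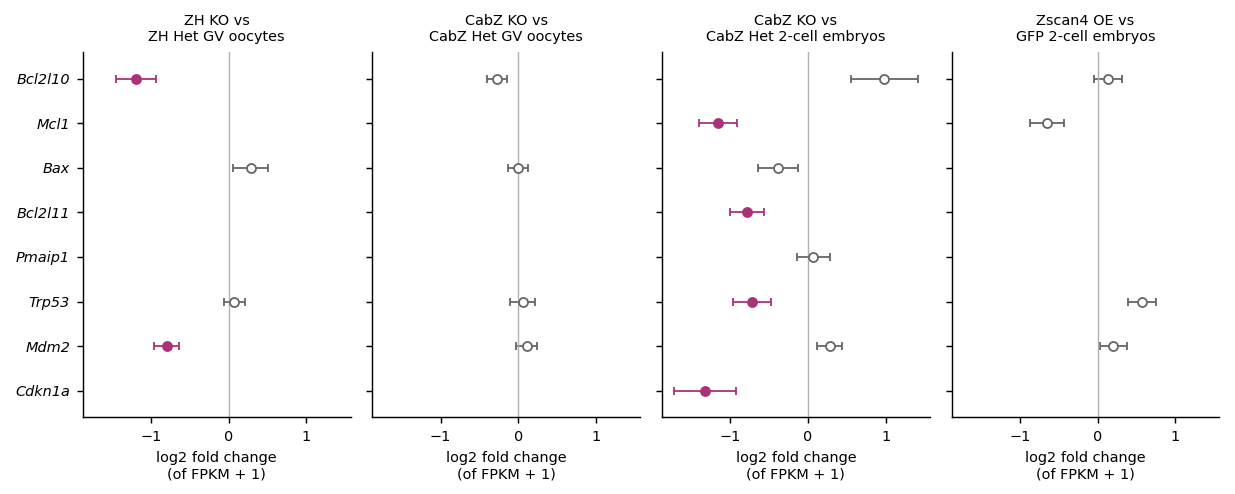
Log2 fold change of FPKM + 1 (x axis) of each member above the filter (y axis) in the 4 comparisons, with bars of 1 standard error and filled points for an adjusted p under 0.05 (limma, n = 4 libraries a group, and 3 for Zscan4 OE). Filled points are Bcl2l10 and Mdm2 in ZH KO oocytes, at -1.19 and -0.80, and Mcl1, Bcl2l11, Trp53 and Cdkn1a in CabZ KO embryos, from -1.33 to -0.72.

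Over the 4 comparisons, 13 pairs of a member and a comparison were under the filter, and 4 of these had groups that did not overlap with an exact permutation p of 0.0286, all higher in KO oocytes: Mcl1 and Pmaip1 in ZH, and Cdkn1a and Pmaip1 in CabZ. Of all genes under 1 FPKM and above 0, 21.3% in ZH and 10.2% in CabZ oocytes were higher by that test (p under 0.05). Pmaip1 was higher by the exact test in the KO oocytes of both lines, and its values in CabZ Het and CabZ KO embryos overlapped. The size of the Pmaip1 difference, 0.0247 to 1.35 FPKM in ZH and 0.0312 to 0.102 FPKM in CabZ, is given for each table alone, and the difference between the lines was not tested. Mdm2 was lower in ZH KO oocytes and had positive log2 fold changes in the other 3 comparisons, none of which passed.

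Bcl2l10, Trp53 and Mdm2 passed in at least 1 comparison and were tested in all 4, and the genes most like them were sought among 3296 genes, by the root mean square difference of the 4 log2 fold changes. For Bcl2l10 these were Cep55 (0.0904), Gm11868 (0.120) and Gm2042 (0.123). For Trp53 they were 2610306M01Rik (0.0730), Gm12251 (0.125) and Nsrp1 (0.131), and for Mdm2 they were Gm7895 (0.0628), Atrx (0.0845) and Aspm (0.0895). Cep55, for example, had log2 fold changes of -1.07 in ZH KO oocytes, -0.32 in CabZ KO oocytes, 1.11 in CabZ KO embryos and 0.16 in Zscan4 OE embryos, beside -1.19, -0.28, 0.98 and 0.13 for Bcl2l10. The CabZ GV and 2-cell tables were normalised separately, and these likenesses are descriptions.

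Wider lists around the members were counted next, beside 51.9% of all genes tested that passed in either direction in ZH KO oocytes. In ZH KO oocytes, 3 of 18 other Bcl2 family genes were tested and 1 passed, higher. Of 34 other p53 targets, 14 were tested, with 4 higher and 3 lower, close to the share over all genes, and a median log2 fold change of 0.29, where the median of all genes was -0.04. Among these targets Btg2, an antiproliferative gene, went from 3.06 ± 0.493 to 8.15 ± 1.64 FPKM (log2 fold change 1.16, adjusted p = 0.00036) and Ninj1, which encodes a plasma membrane protein, from 38.6 ± 6.85 to 12.6 ± 2.32 FPKM (-1.55, adjusted p = 0.00011). Rps27l went from 26.2 ± 4.65 to 54.2 ± 13.7 FPKM (1.00, adjusted p = 0.0023), but how reads shared with its paralog Rps27 were counted is not given in the sources used here. Of 26 p53 family genes and regulators 8 were tested, with 0 higher and 3 lower.

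Of 23 caspase and apoptosome genes in ZH KO oocytes, 7 were tested, with 3 higher and 1 lower, the last being Birc3, an inhibitor of apoptosis (14.0 ± 1.59 to 5.67 ± 1.93 FPKM, log2 fold change -1.21, adjusted p = 0.0010). Of 17 Cdk inhibitors and partners, 10 were tested, with 3 higher and 1 lower, and Ccne2, which encodes cyclin E2, went from 6.20 ± 1.67 to 18.5 ± 11.4 FPKM (log2 fold change 1.32, adjusted p = 0.0082). In CabZ KO oocytes 13.9% of all genes tested passed in either direction. There, 1 of 4 other Bcl2 family genes passed, lower, and 2 of 13 p53 targets, both lower. Of the 7 regulators tested 1 passed, higher, and of the 8 caspase and apoptosome genes 1 passed as higher and 1 as lower. Of the 9 Cdk inhibitors and partners 1 passed, higher, and none of the genes of the 5 lists was DE.

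In CabZ KO embryos 56.1% of all genes tested passed in either direction, and the median log2 fold change of all genes was -0.11. Other Bcl2 family genes gave 0 higher and 3 lower of 4 tested, with Bnip3, a BH3-like gene of mitophagy, going from 20.5 ± 5.28 to 5.45 ± 3.27 FPKM (log2 fold change -1.83, adjusted p = 0.0022). p53 targets gave 6 higher and 4 lower of 16 tested. Tigar, a regulator of glycolysis, went from 11 ± 5.34 to 1.35 ± 1.10 FPKM (-2.35, adjusted p = 0.0010), Sfn from 50.5 ± 20.2 to 17.4 ± 9.71 FPKM (-1.53, adjusted p = 0.0083) and Gadd45a, a growth arrest gene, from 22.8 ± 8.81 to 9.11 ± 1.81 FPKM (-1.18, adjusted p = 0.0060), whereas Ninj1 went from 12.1 ± 1.84 to 30.6 ± 4.25 FPKM (1.28, adjusted p = 0.00051). Regulators gave 4 higher and 4 lower of 11 tested, and Chek1, the checkpoint kinase gene, went from 16.5 ± 4.07 to 40.1 ± 3.56 FPKM (1.26, adjusted p = 0.00096).

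Cdk inhibitors and partners gave 0 higher and 5 lower of 12 tested in CabZ KO embryos, with a median log2 fold change of -0.62. Of all genes tested there, 30.9% passed as lower and 56.1% in either direction. The cell cycle kinase gene Cdk1 went from 25.3 ± 0.195 to 5.75 ± 2.05 FPKM (-2.03, adjusted p = 0.00031), Ccne1 from 18.6 ± 3.27 to 5.06 ± 2.62 FPKM (-1.76, adjusted p = 0.00089), Ccnb1 from 141 ± 20.8 to 43.3 ± 7.72 FPKM (-1.68, adjusted p = 0.00028) and Cdk2 from 6.66 ± 3.15 to 1.68 ± 0.875 FPKM (-1.47, adjusted p = 0.0091). The caspase and apoptosome list gave 1 higher and 3 lower of 10 tested, with Endog, a mitochondrial endonuclease gene, at 5.11 ± 3.24 and 1.46 ± 1.06 FPKM (-1.26, adjusted p = 0.026) and Diablo, which encodes an antagonist of the inhibitors of apoptosis, at 10.4 ± 3.97 and 3.91 ± 1.67 FPKM (-1.21, adjusted p = 0.0097). In Zscan4 OE embryos none of the list genes tested passed in limma (2 other Bcl2 family genes, 5 regulators, 12 p53 targets, 6 caspase and apoptosome genes and 6 Cdk inhibitors and partners), with 2 p53 targets and 1 Cdk partner at an unadjusted p under 0.05, as had 19.8% of all genes tested.

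**Figure D4:**
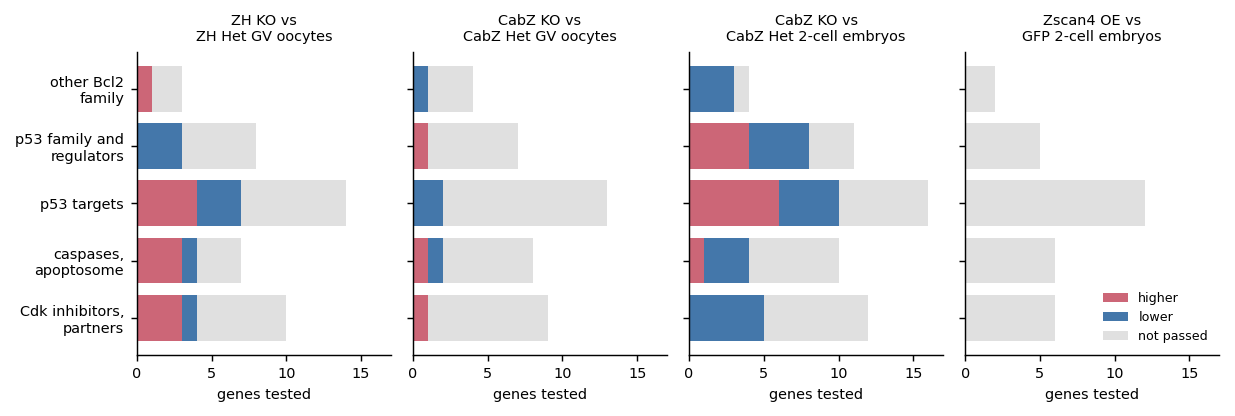
Number of genes tested (x axis) in each of 5 wider lists (y axis) in the 4 comparisons, split into genes that passed as higher (red), passed as lower (blue) or did not pass (grey). In CabZ KO embryos 5 of 12 Cdk inhibitors and partners passed, all lower, where 30.9% of all genes tested passed as lower. In Zscan4 OE embryos no gene of these lists passed.

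Trp63, Bcl2l1 and Bcl2 lay under 1 FPKM or near it and were read from the CPM fit. Bcl2l1, the anti-apoptotic BCL-XL gene, had 1.06 ± 0.375 FPKM in ZH Het and 0.386 ± 0.394 FPKM in ZH KO oocytes (log2 fold change of CPM -1.77, SE 0.51, limma adjusted p = 0.015), the same direction as Bcl2l10. Lower calls were common in that fit, with 2953 of 9310 genes passing as lower. In the other 3 comparisons Bcl2l1 did not pass (limma adjusted p = 0.50, 0.45 and 0.27). Trp63 was higher in CabZ KO embryos (5 to 49 against 60 to 110 reads, log2 fold change of CPM 1.78, SE 0.47, limma adjusted p = 0.0087), opposite to Trp53 in the same libraries. There, 3016 of 11151 genes passed the CPM fit as higher. Trp63 reached its filter, a mean of 5 CPM, only through the CabZ KO libraries, so the fit is no support beyond the reads. In ZH oocytes Trp63 had 235 to 316 reads in Het and 214 to 312 reads in KO libraries (0.07, SE 0.15, limma adjusted p = 0.72). Bcl2 had 0 to 22 reads per library in the 3 tables that list it.

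Open chromatin at the members' promoters was compared in CabZ GV oocytes, with a promoter counted as open where a peak reached within 500 bp of the gene's start. Libraries differed widely in their number of peaks, from 43399 to 111327 in CabZ Het and from 19160 to 46070 in CabZ KO libraries. A promoter peak was found for 1, 3 and 5 of the 10 members in the CabZ Het libraries (A to C) and for 2, 0 and 1 in the CabZ KO libraries (A to C). Over 21924 protein-coding genes the share was 8.58, 17.6 and 32.2% in CabZ Het and 12.4, 3.74 and 4.91% in CabZ KO libraries (means 19.5 ± 11.9 and 7.01 ± 4.69%, 2-sided exact permutation p = 0.2, where 0.1 is the smallest possible). The groups overlapped in this share, and over the 6 libraries the members' counts followed the order of the shares.

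Bcl2l10, the member with the highest RNA level, was the only one with a promoter peak in all 3 CabZ Het libraries, and it had one in 2 of 3 CabZ KO libraries. In all, 1 of 10 members had a peak in all 3 CabZ Het libraries and 0 of 10 in all 3 CabZ KO libraries, beside 4.49% and 0.848% of protein-coding genes. Fold enrichment of these Bcl2l10 peaks over the genome background was 3.94, 4.0 and 3.52 in the CabZ Het libraries and, where present, 4.68 (A) and 3.94 (C) in CabZ KO libraries. Their summits lay 277 bp downstream of the start in Het A, 203 bp upstream in Het B, 223 bp upstream in KO A and 123 bp upstream in KO C. In Het C the peak was 1778 bp wide with a summit 1671 bp downstream.

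Mdm2 had a promoter peak in CabZ Het B (fold enrichment 4.36, summit 329 bp upstream), CabZ Het C (5.57, 74 bp downstream) and CabZ KO A (3.75, 39 bp upstream). Trp53 had one in CabZ Het B (3.27, 211 bp upstream) and CabZ Het C (5.57, 1089 bp upstream). Bax (4.69, 346 bp upstream) and Cdkn1a (3.81, 848 bp upstream) had one in CabZ Het C alone, the library with the most peaks. Mcl1, Bak1, Bbc3, Pmaip1 and Bcl2l11 had none in any library. For Mcl1 the nearest summit was 2576 to 13015 bp from the start in CabZ Het and 1337 to 12701 bp in CabZ KO libraries. The difference between groups was not tested for single genes, since 3 libraries against 3 cannot reach 0.05 in an exact permutation test.

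**Figure D5:**
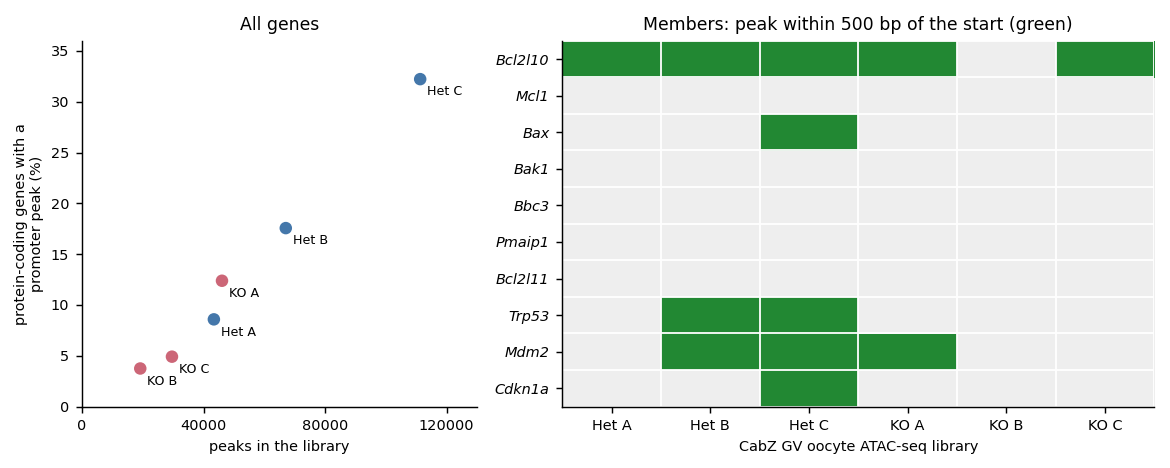
Left, share of 21924 protein-coding genes with a promoter peak (%, y axis) against the number of peaks (x axis) in 6 ATAC-seq libraries of CabZ GV oocytes, Het in blue and KO in red. Right, members (y axis) with a peak within 500 bp of the start (green) in each library (x axis). CabZ Het C has the most peaks, 111327, and 5 of 10 members with a promoter peak, and CabZ KO B the fewest, 19160, and 0 of 10.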

How the data were processed

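RNA was measured by Smart-seq2 in 31 libraries and open chromatin by ATAC-seq in 6. Per the labels and methods, the authors trimmed reads, aligned them with STAR 2.5.3a to GRCm38 (mm10), and computed FPKM per RefSeq gene. The lowest deposited value, 0.01 (ZH, CabZ) or 0.001 (Zscan4 OE), was taken as an added constant and subtracted. The deposited CabZ values, treated as a score, appeared to have been divided by gene span once more. FPKM were therefore restored by multiplying by span and rescaling each library. This unit differed from the FPKM the design assumed. FPKM cover the whole gene span, so long introns lower them. Reads were recovered from the steps between low values (83.4 to 88.6% of these whole within 0.05). For ATAC-seq, the authors used Bowtie2 2.3 and called peaks per library with MACS2, whose deposited files hold fold enrichment (a ratio), −log10 p and q and a score. Peak height, not read depth, is given there, so depth is unknown.

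Each table was fitted alone with limma 3.58.1 (R 4.3.3) on log2(FPKM + 1), keeping genes whose mean reached 1 FPKM, without trend or block, and fold changes on that scale understate low genes. Benjamini-Hochberg adjustment ran over all genes tested. All adjusted p-values are from limma. Members under the filter were compared by 2-sided exact permutation tests. The fit was tested on simulated data. Exon lengths came from GENCODE M21 (GRCm38). Python 3.11.15, scipy 1.17.1 and matplotlib 3.10.9 were used. Of the wider lists, all DE genes up to 4 per list and comparison were named, with Trp63, Bcl2l1 and Bcl2. The members and lists were chosen with earlier results of these data known. Alternatives covered pseudocount, filter, unit, scaling, trend, replicate block and each library left out.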

Additional observations from a re-analysis of the deposited data

Results flagged for a closer look

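Within a group of 4 libraries, 4 of 58 groups of member values held a library far from the others, where chance gives about 1 in 20. Bbc3 had 0.140 FPKM (8 reads) in CabZ KO 2-cell replicate 4 and 0 in the other 3, so that the gap was 1 of the group's range. Pmaip1 had 0.117 FPKM (27 reads) in GFP replicate A and 0 in the other 3, again a gap of 1. Pmaip1 in CabZ Het GV replicate 1, at 0.0462 FPKM, lay apart from 0.0259 to 0.0269 FPKM by a gap of 0.953 of the range, on 4 reads against 2. Cdkn1a in ZH Het GV replicate 2, at 0.0640 FPKM, lay under 0.111 to 0.118 FPKM by 0.872 of the range.

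Mcl1 was higher in every ZH KO oocyte library than in any ZH Het library, by 1.01 FPKM on average, and lower in every CabZ KO 2-cell library than in any CabZ Het library, a difference of -9.79 FPKM. The stage, the gene deleted and the table differ between these comparisons, and the difference between them was not tested.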

How the results depend on the processing

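Over 20 log2 fold changes of members, 320 alternative values were computed, of which 292 kept direction and side of the threshold, 11 changed sign, 11 lost and 6 gained the call. Where a change has no value beside it, the cause was not tested. In ZH KO oocytes 2 members passed, against 4 with no filter on low values, with exon lengths or with scaling to the reads of the table, and 1 with a mean of at least 5 FPKM (2 to 3 without 1 library). Mcl1 and Pmaip1, which passed with exon lengths, reached that filter only through the ZH KO libraries. Genes that passed there numbered 3006 of 5792 tested, against 7005 of 25053 with no filter and 1346 of 2519 at 5 FPKM. Over CPM they numbered 5084 of 9310, and over exon lengths 5643 of 10281. In CabZ KO oocytes 0 members passed, and 1 with no filter (Pmaip1). All genes that passed there numbered 883 of 6339 tested, against 1400 of 19033, 466 of 2891, 1432 of 9523 and 1666 of 10796 under the same settings. Without 1 library they numbered 588 to 843, 588 being without CabZ Het replicate 1. In CabZ KO embryos 4 members passed, against 2 with no filter, 2 at 5 FPKM and 1 with the deposited values as they stand. All genes that passed there numbered 4376 of 7798 tested, against 2148 of 3237 at 5 FPKM. They numbered 6996 of 13602 over exon lengths and 2773 of 6337 with the deposited values. With the deposited values Mcl1 (-0.57, adjusted p = 0.111) and Cdkn1a (-0.60, adjusted p = 0.199) lost their calls, and with no filter Cdkn1a (adjusted p = 0.0610) and Trp53 (adjusted p = 0.0624) did. In Zscan4 OE embryos 0 members passed under each setting run. There, 77 of 4293 genes tested passed, against 47 of 4293 with a pseudocount of 0.1 and 6 of 15855 with no filter. Without 1 library the number ran from 18 (without GFP replicate A) to 112 (without Zscan4 OE replicate C). Of the 13 low pairs, 4 were called, against 0 in the CPM fit at 5 CPM, which only 3 of the 13 pairs entered, and 3 in that fit with no filter.

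The replicate numbers did not pair the libraries (correlations of same-numbered deviations from -0.407 to 0.395). Across numbers, ZH Het 1 and 2 went with ZH KO 2 and 3 (correlations 0.140 to 0.454). ZH Het 3 and 4 went with ZH KO 1 and 4 (0.196 to 0.475). All other ZH pairs were negative (-0.436 to -0.117). The fit holds no term for these sets, and their part in the values was not tested. With a replicate block, 2 genes passed in Zscan4 OE embryos in place of 77, Bcl2l10 gained the call in CabZ KO embryos (adjusted p = 0.0425, and 0.0283 with the deposited values) and Trp53 lost it (adjusted p = 0.0733). In all 4 comparisons the count of members that passed was the same as without the block.

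Signs turned for weak differences. Trp53 in ZH KO oocytes was -0.0755 after median scaling and -0.0167 to 0.131 without 1 library. In CabZ KO oocytes Bax was 0.0037 with the deposited values and -0.0666 to 0.0664 without 1 library, and Trp53 -0.0503 to 0.160. In CabZ KO embryos Bax was 0.0624 with the deposited values and Pmaip1 -0.0436 to 0.218 without 1 library. Members with an ATAC-seq promoter peak averaged 3 per CabZ Het and 1 per CabZ KO library, a difference of -2, which was -1 with −log10 q of at least 5 and -1 with the summit in the window, and -3 (without CabZ Het A) to -1 (without CabZ Het C) without 1 library. Read depth limits Pmaip1, Cdkn1a and Mcl1 in GV oocytes and Bbc3 in CabZ embryos.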
